A study of Homo sapiens with 18 samples.

Results

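Of the 35544 genes measured in hiF-T cells, 9 genes of tight junctions and desmosomes are described here: the claudins CLDN1 and CLDN11, occludin (OCLN), the scaffold TJP1 (ZO-1), the desmosomal cadherin DSG2, the plaque proteins plakoglobin (JUP), desmoplakin (DSP) and PKP2, and the membrane protein PERP. The 9 genes were named as a family, but which junction genes entered it was selected on their measured levels and changes in these same libraries. Their differences from control are therefore given as descriptions and do not count as tests. All 9 passed the filter on low counts and were among the 13519 genes tested.

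hiF-T cells are fibroblast-like cells that carry hTERT, from BJ skin fibroblasts, an established human line. The 18 libraries of poly(A) RNA fall into 4 groups, all of genotype WT per the labels: 4 control libraries (backbone guides 1 and 2), 4 with CDKN1A guides 1 and 2, 4 with KDM1A guides 2 and 3, and 6 with SPP1 guides 1, 2 and 3. Each guide had biological replicates 1 and 2. The series compares CRISPR knockdowns of individual genes with control. The labels do not say whether replicates came from separate cultures or transductions, so the spread between them may be technical. All groups, controls included, carry the hTERT transgene, and whether any inducible transgene of the line was induced is not stated in the labels.

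Tight junctions seal the space between neighbouring epithelial cells. Their strands are built from claudins and occludin, and ZO proteins tie the strands to actin. Desmosomes hold cells together mechanically: desmogleins and desmocollins span the membranes, plakoglobin and plakophilins bind their tails, and desmoplakin links the plaque to intermediate filaments. PERP is a desmosomal membrane protein of stratified epithelia and a target gene of p53. Both junctions are typical of epithelia, and desmosomes also of heart muscle, while fibroblasts are not known for building them. Repressors of the SNAI and ZEB families silence junction genes through E-box motifs, CAGGTG being the classic form, and SNAI1 can recruit the histone demethylase KDM1A.

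Promoters are shown for 4 genes because 3 of them (CLDN1, JUP and PERP) were all higher in the libraries with KDM1A guides and DSP was lower there. Each line is the 250 bases before the RefSeq start (GRCh38.p14), 5′ to 3′ on the strand of the gene, with any CAGGTG or its reverse complement CACCTG in capitals.
CLDN1: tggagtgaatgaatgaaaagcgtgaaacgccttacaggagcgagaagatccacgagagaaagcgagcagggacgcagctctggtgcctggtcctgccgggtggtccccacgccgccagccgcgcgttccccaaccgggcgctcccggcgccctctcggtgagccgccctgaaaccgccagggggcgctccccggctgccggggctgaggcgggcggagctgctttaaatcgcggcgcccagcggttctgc
JUP: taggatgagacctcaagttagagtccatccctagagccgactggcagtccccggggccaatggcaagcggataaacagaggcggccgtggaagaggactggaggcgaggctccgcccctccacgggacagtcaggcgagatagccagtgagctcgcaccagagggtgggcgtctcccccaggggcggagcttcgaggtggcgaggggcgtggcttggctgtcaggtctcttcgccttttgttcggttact
PERP: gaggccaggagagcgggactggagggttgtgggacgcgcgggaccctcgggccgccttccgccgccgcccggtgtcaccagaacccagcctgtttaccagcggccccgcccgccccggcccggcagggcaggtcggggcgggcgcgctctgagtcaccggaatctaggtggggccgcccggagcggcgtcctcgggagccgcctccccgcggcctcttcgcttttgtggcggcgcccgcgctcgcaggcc
DSP: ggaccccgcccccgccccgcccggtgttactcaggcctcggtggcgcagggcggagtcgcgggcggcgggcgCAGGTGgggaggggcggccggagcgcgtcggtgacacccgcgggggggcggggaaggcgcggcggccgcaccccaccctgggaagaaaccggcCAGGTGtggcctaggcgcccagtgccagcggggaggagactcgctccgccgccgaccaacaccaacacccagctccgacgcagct
CLDN1 lies at chr3:190322447-190322696 on the minus strand, JUP at chr17:41786712-41786961 on the minus strand (the upstream one of 2 listed starts), PERP at chr6:138107420-138107669 on the minus strand and DSP at chr6:7541421-7541670 on the plus strand. The motif was searched on both strands in the RefSeq windows of 300 bases, 250 before to 50 after a start. It occurred 178 and 85 bases before the start of DSP, and these letters were not in the printed windows of CLDN1, JUP or PERP. The second JUP window, chr17:41785927-41786226, held CACCTG 54 and CAGGTG 43 bases before its start. In all, 8 of the 9 genes had a window (PKP2 did not), and 6 of their 14 windows (42.9%) held the motif, against 7231 of 35116 windows of all genes (20.6%). The windows of all genes were not matched for GC content, which was 66.7 to 77% in the member windows with the motif, and the 2 OCLN windows overlap. No enrichment is read from these shares. The genes were not chosen at random, a match is not a binding site, and no binding was measured.

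Each library held 11907197 to 17016094 estimated counts in all, with 12471 to 13154 genes at 10 counts or more. The targeted genes were checked first. KDM1A mRNA was at 62.6% of the control mean with guide 2 and 43.4% with guide 3, and CDKN1A mRNA at 46.1% and 70.4% with its guides 1 and 2, all called. SPP1 mRNA was at 39.5% with guide 1, 79.5% with guide 2 and 65.5% with guide 3. Its fall over all 3 SPP1 guides was not called in the fit over all genes (edgeR's quasi-likelihood test, adjusted p 0.0696), and 2 of the 6 libraries, guide 2 replicate 2 at 55.3 CPM and guide 3 replicate 1 at 63 CPM, lay within the control range of 55.2 to 72.7 CPM. Guide 1 on its own was called (log2 -1.33 ± 0.25). The groups are named by their guides throughout. On a fixed list, 14 of 14 fibroblast markers had a level above 0 in some library of each group. In control the same held for 7 of 7 melanocyte and 10 of 10 endothelial and leukocyte markers. Detection in this sense therefore does not identify the cells. The fibroblast list summed to 13800 to 15600 TPM in control, and its largest parts were VIM (mean 6280 TPM) and FN1 (4140 TPM). THY1, a usual fibroblast surface marker, was low in control at 0.138 TPM.

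Levels of different genes are compared per transcript length, as TPM, a measure of transcripts scaled to the same total in each library. In control libraries DSP stood at 30.5 ± 4.35 TPM (SD, n = 4), PERP at 23.3 ± 2.51 and TJP1 at 21.2 ± 0.818. CLDN1 followed at 4.73 ± 1.41 TPM, CLDN11 at 3.22 ± 0.342, PKP2 at 2.67 ± 1.48, JUP at 1.4 ± 0.575, DSG2 at 0.76 ± 0.398 and OCLN at 0.229 ± 0.0317. PERP and TJP1 overlapped between libraries, as did each neighbouring pair from CLDN1 down to DSG2. The control libraries thus held much more of the desmosomal linker DSP than of the desmosomal cadherin DSG2. The other desmosomal cadherins fixed in the list, DSG1, DSG3, DSG4, DSC1, DSC2 and DSC3, were all too low to be tested, the highest control mean being that of DSG3, 0.116 TPM. In the libraries with KDM1A guides the order was PERP (40.7 ± 2.02 TPM), CLDN1 (25.5 ± 7.92), TJP1 (20 ± 3.09) and DSP (14.6 ± 1.07), then PKP2, JUP and CLDN11 between 4.29 and 4.66 TPM on average. Estimated counts per library ran from 983 to 2970 for DSP, from 58 to 1120 for CLDN1, from 19 to 173 for JUP and from 5 to 102 for DSG2. OCLN had 4 to 20 counts in a library, so its values carry large counting error, and part of its reads may be shared with the pseudogene OCLNP1.

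**Figure D1:**
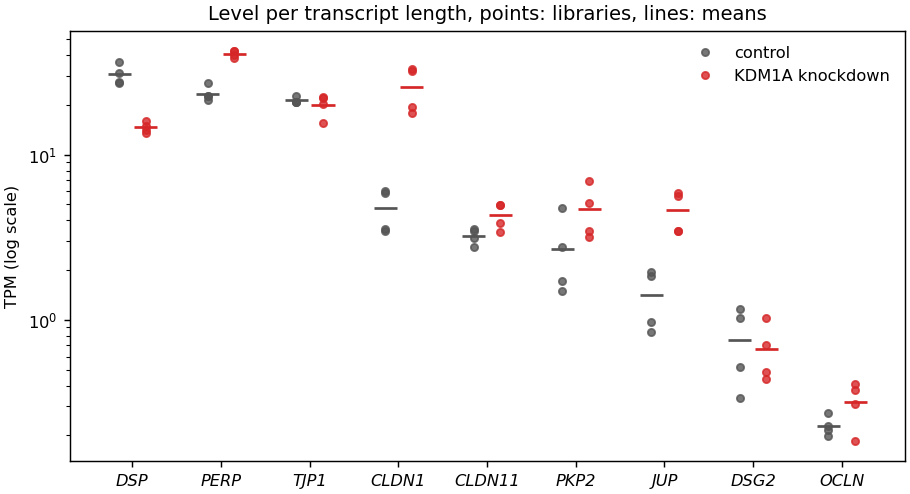
TPM (log scale) of the 9 genes in the 4 control libraries and the 4 libraries with KDM1A guides, ordered by control mean. Points are libraries and lines are means. DSP, the highest in control at 30.5 TPM, lay below PERP, CLDN1 and TJP1 with KDM1A guides at 14.6 TPM, and CLDN1 moved from 4.73 to 25.5 TPM.

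The libraries with KDM1A guides had the most calls among the 9 genes: CLDN1, JUP, PKP2 and PERP rose, DSP fell, and CLDN11, OCLN, TJP1 and DSG2 were not called. Calls were made at 0.05 on the adjusted p of edgeR's quasi-likelihood test over all genes. That gives 5 of 9 genes called, 4 higher and 1 lower, where 9.06% of all tested genes were called, 5.33% upward and 3.73% downward. The median log2 fold change of the 9 genes was 0.63 against -0.01 over all genes. For 4 of the 9 (CLDN1, JUP, PERP, DSP) the KDM1A and control libraries did not overlap, as was the case for 15.7% of all tested genes. Nothing is read from these shares, since the genes were chosen by values of this contrast. With CDKN1A guides 1 of 9 genes was called (PERP), against 2.0% of all genes, 1.09% upward and 0.917% downward. With SPP1 guides 2 of 9 were called (PERP upward, DSP downward), against 5.46%, 2.4% upward and 3.06% downward. DSP alone did not overlap control in both of these groups, a state shared by 13.1% of tested genes with CDKN1A guides and 6.35% with SPP1 guides. These contrasts share their control libraries. In bulk RNA, fewer cells expressing a gene and less of its RNA per cell cannot be told apart.

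**Figure D2:**
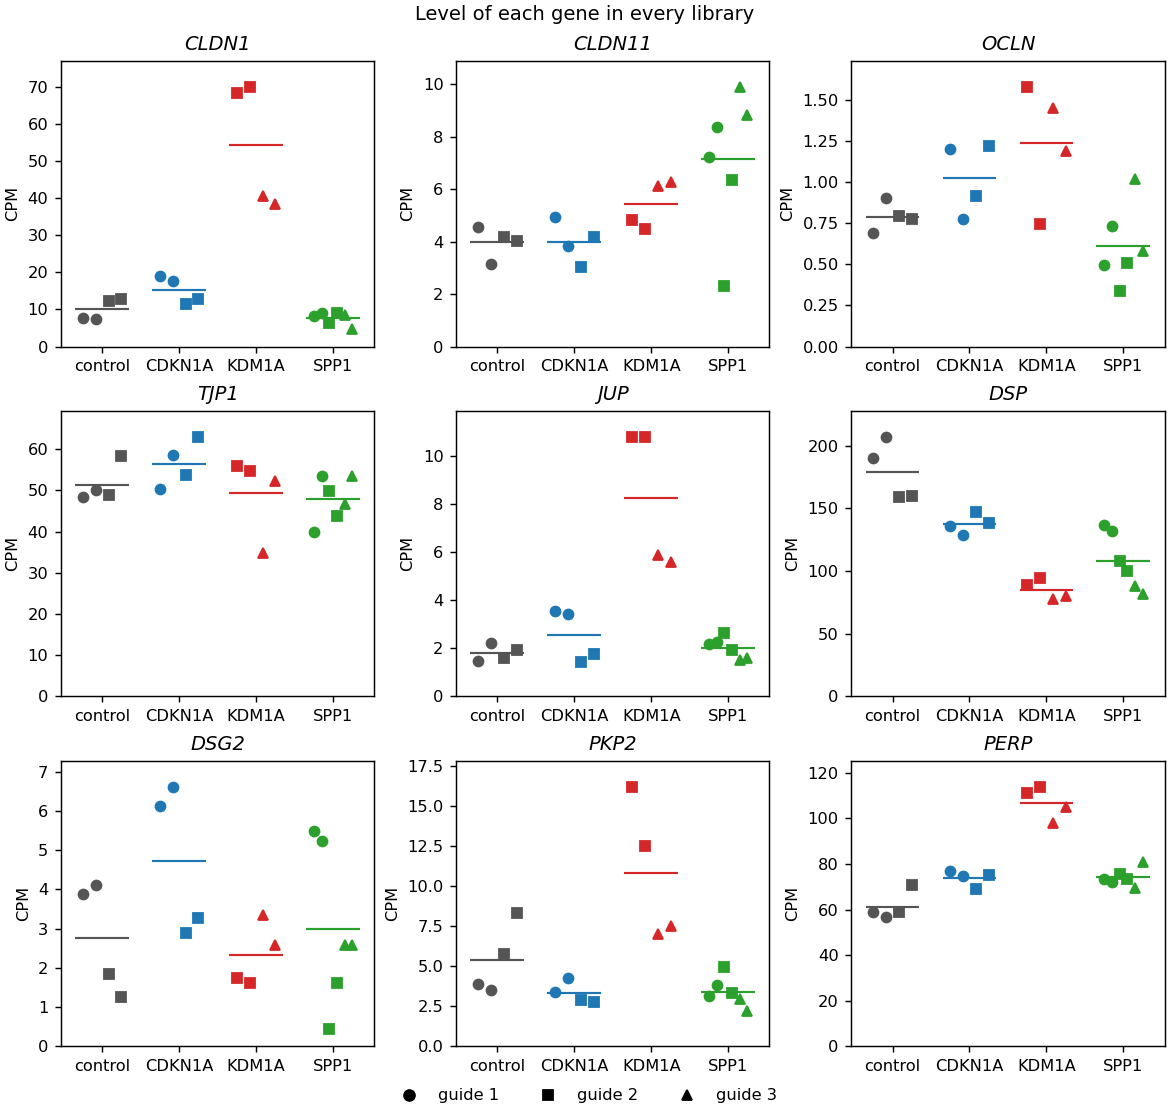
CPM (counts scaled to library size, axes from 0) of each gene in the 18 libraries. Points are libraries, their shape is the guide number and lines are group means. CLDN1, JUP and PERP in the 4 libraries with KDM1A guides lie above every control library, and DSP lies below every control library in all 3 targeted groups.

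CLDN1 (ENSG00000163347, chromosome 3, 190305701 to 190322475 on GRCh38) encodes claudin-1, the main sealing claudin of the epidermis. It measured 7.74 and 7.32 CPM with control guide 1 and 12.4 and 12.9 CPM with control guide 2. With KDM1A guide 2 it reached 68.3 and 69.9 CPM, and with guide 3 40.5 and 38.3 CPM. Every KDM1A library was above every control library, and the group difference was 5.38-fold (log2 2.43 ± 0.24, SE). The CDKN1A libraries measured 19.1 and 17.6 CPM with guide 1 and 11.4 and 12.7 CPM with guide 2, so that only guide 1 left the control range (group log2 0.6 ± 0.25, not called). With SPP1 guides it ran from 4.83 through a median of 8.37 to 9.11 CPM and overlapped control (log2 -0.38 ± 0.24, not called). The transcript CLDN1-201 took 100% of the gene's counts in control and in KDM1A libraries.

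CLDN11 (ENSG00000013297, chromosome 3, 170418865 to 170454733), the claudin of myelin and Sertoli cell junctions, measured 3.14 to 4.56 CPM in control and 3.03 to 4.93 CPM with CDKN1A guides. With SPP1 guides it ranged from 2.3 to 9.89 CPM with a median of 7.8. Of those 6 libraries, 5 were above every control library and the remaining one, guide 2 replicate 1, was below every one. The difference, log2 0.85 ± 0.26, was not called with all 6 libraries, and was called without that library (log2 1.03) and with DESeq2 (0.86). With KDM1A guides it was 4.49 to 6.28 CPM (log2 0.45 ± 0.28, not called). The overlapping gene AC026316.5 on the same strand may share its reads.

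OCLN (ENSG00000197822, chromosome 5, 69492292 to 69558104), the strand protein occludin, stayed under 2 CPM throughout. It measured 0.691 to 0.906 CPM in control, 0.778 to 1.22 with CDKN1A guides, 0.749 to 1.58 with KDM1A guides and 0.34 to 1.02 with SPP1 guides. Every group overlapped control and none of the differences from control was called. The scaffold TJP1 (ENSG00000104067, chromosome 15, 29699367 to 29968865) measured 48.3 to 58.3 CPM in control, 50.3 to 63 with CDKN1A guides, 34.8 to 55.9 with KDM1A guides and 39.8 to 53.6 with SPP1 guides. All groups overlapped, and the group differences, log2 0.14 ± 0.12, -0.05 ± 0.12 and -0.1 ± 0.11, were the smallest of the set for KDM1A and SPP1 guides. TJP1 was thus not called in any group.

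DSG2 (ENSG00000046604, chromosome 18, 31498043 to 31549008), the desmoglein found in simple epithelia and heart, separated guides more than targets. It measured 3.87 and 4.11 CPM with control guide 1 but 1.85 and 1.24 CPM with control guide 2. With SPP1 guides it ran from 5.48 and 5.22 CPM for guide 1 through 2.59 and 2.58 for guide 3 to 0.425 and 1.6 for guide 2. The groups overlapped in every contrast and none of the 3 differences from control was called (log2 0.77 ± 0.48, -0.26 ± 0.51 and 0.14 ± 0.46 for CDKN1A, KDM1A and SPP1 guides). An antisense gene, DSG2-AS1, overlaps it, and the sources do not say whether the counting used strand.

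JUP (ENSG00000173801, chromosome 17, 41754604 to 41786931) encodes plakoglobin, an armadillo protein that serves both desmosomes and adherens junctions. Control libraries measured 1.45, 2.23, 1.59 and 1.94 CPM. With KDM1A guide 2 both libraries measured 10.8 CPM, and with guide 3 5.89 and 5.59 CPM. All 4 were above every control library, a 4.57-fold difference (log2 2.19 ± 0.29). The size depended on transcript length: with a transcript length offset it was log2 1.77, still called. Mean TPM was 1.4 in control and 4.61 with KDM1A guides. CDKN1A guide 1 gave 3.54 and 3.44 CPM and guide 2 1.41 and 1.75 CPM, the latter overlapping control (group log2 0.51 ± 0.31, not called). With SPP1 guides JUP ran from 1.5 to 2.64 CPM, median 2.06 (log2 0.17 ± 0.3, not called).

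PKP2 (ENSG00000057294, chromosome 12, 32790745 to 32896840), a plakophilin best known from heart muscle desmosomes, measured 3.87 and 3.48 CPM with control guide 1 and 5.75 and 8.31 CPM with control guide 2. KDM1A guide 2 gave 16.2 and 12.5 CPM, above every control library, while guide 3 gave 6.98 and 7.47 CPM, within the control range. The group difference, 2.02-fold (log2 1.01 ± 0.28), thus rested on guide 2: without it the log2 difference was 0.44 and not called. Without control guide 1 it was 0.62 and not called either. With CDKN1A guides PKP2 measured 2.74 to 4.28 CPM (log2 -0.68 ± 0.31) and with SPP1 guides 2.17 to 4.93 CPM (log2 -0.66 ± 0.28), neither called.

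DSP (ENSG00000096696, chromosome 6, 7541575 to 7586717), desmoplakin, lay below every control library in all 3 targeted groups. Control guide 1 gave 190 and 207 CPM and control guide 2 159 and 160 CPM. With KDM1A guides DSP measured 88.5, 94.2, 77.8 and 80.1 CPM, all below every control library, and fell by 1.07 ± 0.13 on the log2 scale. The SPP1 libraries ran from 81.9 through a median of 104 to 137 CPM, again all below control, and DSP fell by 0.73 ± 0.12 on the log2 scale. Against control guide 2 alone the SPP1 difference was log2 -0.57 and not called, in a fit that called only 7 of all genes. The CDKN1A libraries, 136, 129, 147 and 138 CPM, were also all below control, but the group difference of log2 -0.38 ± 0.13 was not called. The longer transcript DSP-201 took 75.8% ± 1.14 of the gene's counts in control (SD, n = 4), 76% ± 2.54 with CDKN1A guides, 73.9% ± 4.46 with KDM1A guides and 78.1% ± 6.81 with SPP1 guides (n = 6), as divided by the authors' quantification.

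PERP (ENSG00000112378, chromosome 6, 138088505 to 138107511) was higher than control in all 3 targeted groups. Control libraries measured 58.8, 56.9, 58.7 and 70.9 CPM, the last of them control guide 2 replicate 2. With KDM1A guides PERP measured 111, 114, 98 and 105 CPM, without overlap, a 1.75-fold difference (log2 0.80 ± 0.07). With CDKN1A guides it measured 77, 74.8, 68.9 and 75.1 CPM, with 3 of 4 libraries above every control library (log2 0.27 ± 0.07). With SPP1 guides it ran from 69.4 through a median of 73.4 to 80.8 CPM, with 5 of 6 above every control library (log2 0.27 ± 0.06). Both smaller differences were called and both lost the call without control guide 1, each at log2 0.19. That fit called only 42 of all genes with CDKN1A guides and 7 with SPP1 guides. PERP and DSP, both desmosomal, thus lay on opposite sides of control in each targeted group.

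**Figure D3:**
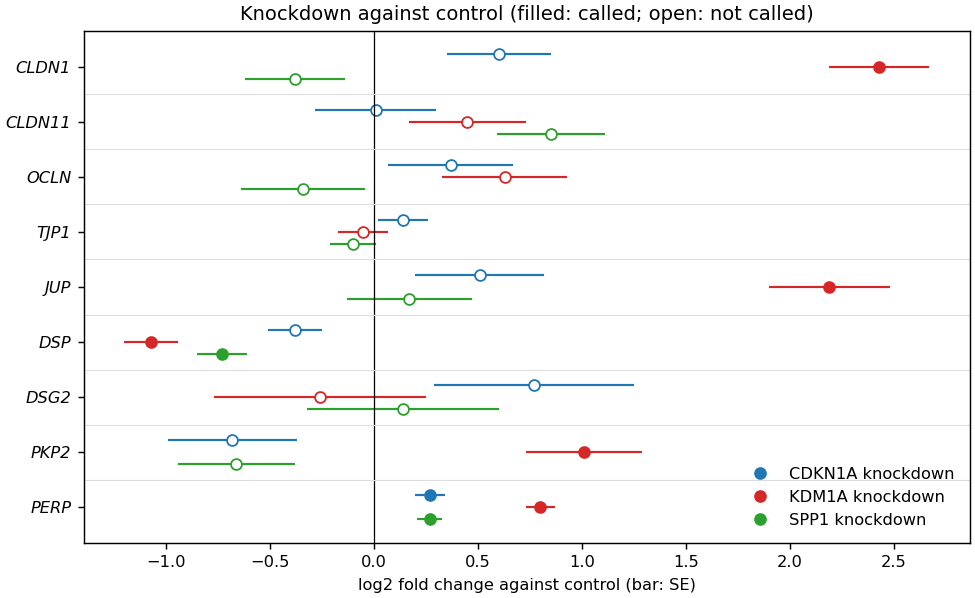
Log2 fold change of each gene against control with its SE, for CDKN1A, KDM1A and SPP1 guides, from the fit over all genes. Filled points are called and open points are not; CLDN1 (2.43) and JUP (2.19) with KDM1A guides lie farthest from 0.

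Compared with each other, without the control libraries, KDM1A libraries exceeded CDKN1A libraries in CLDN1 (log2 1.83 ± 0.23), JUP (1.69 ± 0.28), PKP2 (1.69 ± 0.29) and PERP (0.53 ± 0.07), and were lower in DSP (-0.69 ± 0.13). These 5 of 9 were called, against 15.0% of all tested genes. KDM1A libraries exceeded SPP1 libraries in CLDN1 (2.81 ± 0.21), JUP (2.03 ± 0.25), PKP2 (1.67 ± 0.26), OCLN (0.98 ± 0.28) and PERP (0.53 ± 0.06), 5 of 9 against 11.9% of all genes. DSP was not called there (log2 -0.34 ± 0.12). Between CDKN1A and SPP1 libraries 2 of 9 were called, against 12.1%: CLDN1 was higher (0.98 ± 0.23) and CLDN11 lower (-0.85 ± 0.26) with CDKN1A guides. PERP differed by log2 0 ± 0.06 between these groups. Since the KDM1A libraries also helped to choose the genes, these values are descriptions as well.

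Single guides were set against the 4 control libraries. DSP was lower with each of the 7 guides, from log2 -0.33 ± 0.09 with CDKN1A guide 2 to -1.18 ± 0.09 with KDM1A guide 3, all called. PERP was higher with each of the 7, from 0.24 ± 0.08 (CDKN1A guide 2) to 0.88 ± 0.08 (KDM1A guide 2), and 5 of these were called. CLDN1 was called upward with CDKN1A guide 1 (0.87 ± 0.2), KDM1A guide 2 (2.78 ± 0.18) and KDM1A guide 3 (1.97 ± 0.19), and JUP with the same 3 guides (0.96 ± 0.18, 2.58 ± 0.17 and 1.67 ± 0.18). PKP2 was called with 1 guide, KDM1A guide 2 (1.43 ± 0.25), and CLDN11 with 1, SPP1 guide 3 (1.24 ± 0.25), while TJP1, OCLN and DSG2 were called with no guide. Of the 9 genes, 4 were called with CDKN1A guide 1 and 1 with guide 2, against 2.83% and 4.04% of all tested genes. With KDM1A guides 2 and 3, 5 and 4 were called, against 11.7% and 9.13%. With SPP1 guides 1, 2 and 3, 1, 2 and 3 were called, against 2.33%, 8.0% and 8.26%.

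**Figure D4:**
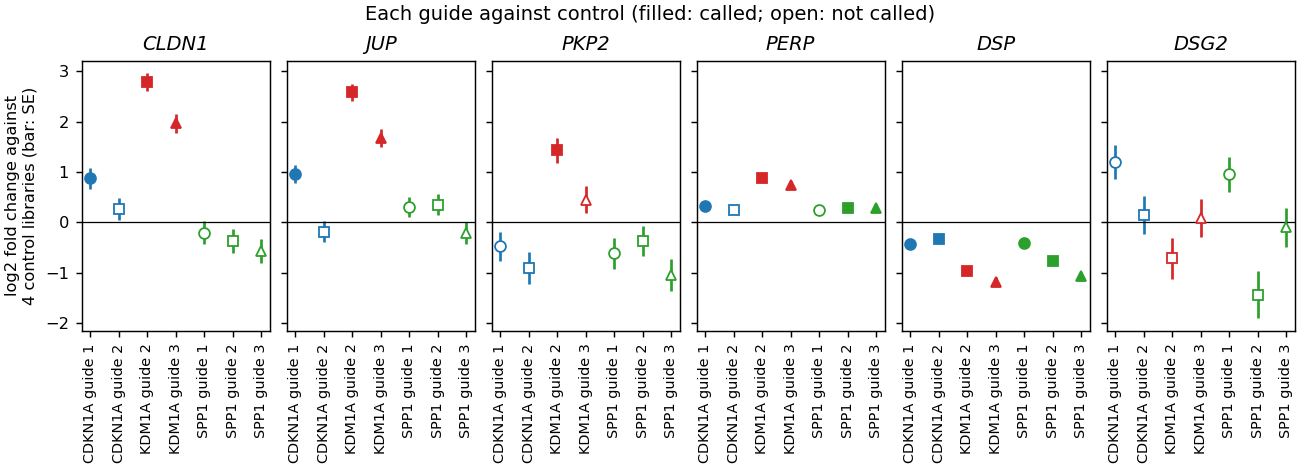
Log2 fold change with SE of 6 genes for each of the 7 guides against the 4 control libraries; filled points are called. DSP is below 0 and PERP above 0 for every guide, and CLDN1, JUP and PKP2 are higher with KDM1A guide 2 than with guide 3.

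Guides of the same target were then compared with each other, a contrast in which the control libraries do not enter the difference, except for their own 2 guides. Values by guide were also among those on which the genes were selected, so these differences too are descriptions, with calls from edgeR's quasi-likelihood fit over 13968 genes. KDM1A guide 3 gave lower CLDN1 (log2 -0.81 ± 0.14), JUP (-0.91 ± 0.18) and PKP2 (-0.98 ± 0.21) than guide 2, 3 of 9 genes against 5.78% of all. The guide with less of the 3 transcripts was also the one with less KDM1A mRNA left (43.4% against 62.6% of control), whose part in the difference was not tested. CDKN1A guide 2 gave lower JUP than guide 1 (-1.14 ± 0.23), 1 of 9 genes against 1.18%. SPP1 guide 2 gave lower DSG2 (-2.39 ± 0.34) and DSP (-0.37 ± 0.07) than guide 1, 2 of 9 against 2.09%. SPP1 guide 3 gave lower DSP than guide 1 (-0.66 ± 0.07), 1 of 9 against 2.61%, and between SPP1 guides 2 and 3 none of the 9 was called, against 0.179%. The 2 control guides differed in DSP (-0.3 ± 0.06 in guide 2), 1 of 9 against 1.32%.

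The genes also differed in where their spread over the 18 libraries lay. Of the sum of squares of log2 CPM, 91.2% lay between the 4 groups for PERP, 90% for CLDN1, 81.2% for JUP, 80.9% for DSP and 71.7% for PKP2. For DSG2 18.4% lay between groups and 70.2% between guides of a group. For TJP1 the largest share, 53.3%, lay between the 2 libraries of a guide. The shares were not adjusted for the numbers of groups, guides and libraries. Where nothing differs, the part between libraries of a guide is the largest. The genes were also selected on group values, so the shares are descriptions. CLDN1 and JUP followed each other over the 18 libraries (Pearson r 0.91) but less over the 14 libraries without KDM1A guides (0.44). DSP and PERP ran opposite in both sets (-0.79 and -0.73). These correlations are descriptions over libraries that share groups and guides.

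The tested genes (mean log2 CPM at least 1) whose log2 CPM most resembled each of 5 members over the 18 libraries were found by Pearson r. For CLDN1 they were MYEF2 (r 0.948), FAM20C (0.944) and DOCK6 (0.939), and for JUP they included DOCK6 (0.945) and LUM (0.928). For DSP they were LZTS1 (0.908), TLL1 (0.903) and ATF3 (0.9), with r of 0.86, 0.95 and 0.89 over the 14 libraries without KDM1A guides. For PERP they were C1GALT1C1 (0.96), SYT11 (0.936) and CCNDBP1 (0.936), and for CLDN11 HNRNPUL2-BSCL2 (0.871), GTF3C6 (0.856) and SNRNP70 (0.833). DOCK6 was on the lists of both CLDN1 and JUP, and its r fell to 0.64 and 0.58 in the 14 libraries.

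Of 36 other tight junction genes 27 were tested, and 2 of the 27 were called with KDM1A guides, 0 with CDKN1A guides and 1 with SPP1 guides, no larger a share than the 9.06%, 2.0% and 5.46% of all tested genes. The polarity protein PARD6A was called upward with KDM1A guides (log2 1.9 ± 0.48, from 0.335 ± 0.118 to 1.29 ± 0.864 CPM, SD). Its mean was 0.378 CPM with CDKN1A guides and 0.456 CPM with SPP1 guides. It may thus have passed the low-count filter only through the KDM1A libraries where it was high, so its call is a description. AMOTL1 was called downward with KDM1A guides (-0.22 ± 0.06), and the adhesion molecule JAM3 downward with SPP1 guides (-0.45 ± 0.12). The list's medians, 0.08, 0.04 and 0 on the log2 scale for CDKN1A, KDM1A and SPP1 guides, were near the medians of all genes. Of 21 other claudins 5 were tested and none was called; CLDN12, the most abundant at 36.1 TPM in control, differed by log2 -0.07 ± 0.06 with KDM1A guides. CLDN7, too low to be tested, measured 0 to 0.163 TPM in control and 0.0924 to 2.54 TPM with KDM1A guides. These ranges overlapped, and its level with KDM1A guides was 0.348 ± 0.324 CPM (SD). It is neither a called gene nor the most abundant of its list, and nothing is read from it. Of 11 other desmosome genes 3 were tested (PKP1, PKP3 and PKP4) and none was called; PKP4, at 51.7 TPM in control, differed by -0.13 ± 0.09 with KDM1A guides.

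Of 14 adherens junction genes 11 were tested. With KDM1A guides 0 were called upward and 2 downward, against 5.33% and 3.73% of all tested genes. SPP1 guides gave 1 and 1, against 2.4% and 3.06%, and CDKN1A guides 0 and 0. The lists were chosen with earlier results known, so nothing is read from these shares. NECTIN4 (-1.24 ± 0.3) and the actin-linked PDLIM7 (-0.37 ± 0.11) were called downward with KDM1A guides, and with SPP1 guides PDLIM7 downward (-0.38 ± 0.1) and LIMA1 upward (0.2 ± 0.06). The adherens junction catenins CTNNB1, CTNNA1 and CTNND1 were called in none of the 3 targeted groups. Among 11 relatives of PERP and p53 death genes, all tested, the death receptor TNFRSF10B was called upward with CDKN1A guides (0.23 ± 0.06). That is 1 of 11, against 1.09% of all genes upward. KDM1A guides gave 1 upward and 2 downward, and SPP1 guides 0 and 3, beside the shares of all genes above. Nothing is read from these counts either. With KDM1A guides EMP1, of PERP's wider family, was called upward (0.23 ± 0.07), and BBC3 (-0.85 ± 0.2) and TNFRSF10B (-0.19 ± 0.06) downward. With SPP1 guides EMP2 (-0.43 ± 0.06), BBC3 (-0.64 ± 0.18) and PMAIP1 (-0.28 ± 0.07) were called downward. With KDM1A and SPP1 guides PERP thus differed from control in the opposite direction to BBC3, another p53 target.

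Of 9 junction repressors 8 were tested. SNAI1 was called upward with KDM1A guides (log2 1.07 ± 0.26, from 4.6 ± 0.559 to 9.63 ± 3.51 CPM, n = 4 each). In the same libraries CLDN1, JUP and PERP were higher and DSP was lower. The part of SNAI1 in these values was not tested. TCF4 was called downward with SPP1 guides (-0.31 ± 0.09), and SNAI2, ZEB1, ZEB2, TWIST1 and TWIST2 were called in none. Of 14 epithelial activators and adhesion genes 4 were tested, and KLF5 was called downward with SPP1 guides (-0.75 ± 0.14). CDH1 (E-cadherin) was not called, at 1.51 TPM in control and 1.6 TPM with KDM1A guides.

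Markers of other cells were read beside these values. Of 18 keratinocyte markers 10 were tested, and KRT15 was called upward with KDM1A guides (log2 1.23 ± 0.17). The summed level of the list was 159 to 184 TPM in control, 159 to 181 with CDKN1A guides, 191 to 203 with KDM1A guides and 173 to 214 with SPP1 guides. KRT10, at 155 TPM in control, made up most of it. The defining basal keratin KRT5 and the suprabasal KRT1 were at 0 in every control, KDM1A and SPP1 library. Of the fibroblast markers 13 of 14 were tested, and LUM (3.79 ± 0.29), DCN (1.9 ± 0.33) and PDGFRB (0.51 ± 0.15) were called upward with KDM1A guides, beside the CLDN1 and JUP differences. Of 7 melanocyte markers 2 and of 10 endothelial and leukocyte markers 3 were tested, with none called. Of 8 cardiac and oligodendrocyte markers only NKX2-5 was tested, and it was called downward with KDM1A guides (-0.71 ± 0.13). The part of other cell types in the junction values was not tested.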

How the data were processed

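The authors quantified poly(A) RNA of the 18 libraries with kallisto on GRCh38, per the submitters' processing notes, and deposited 1 table per library of estimated counts, TPM and effective lengths for 188753 transcripts. The estimated counts are expected counts as deposited by the authors, not scaled to library size. The version and settings of kallisto, strand use included: not given in the sources used here. GENCODE 29 assigned 169754 transcripts (89.9%) to 35544 genes; the others, 2.51 to 2.63% of the counts of each library, were left out. Deposited TPM were summed per gene to compare genes.

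Gene sums of the estimated counts were rounded and filtered by filterByExpr (count minimum 10), leaving 13519 genes. edgeR 4.0.16 (R 4.3.3) fitted a quasi-likelihood model with TMM scaling to all 18 libraries, 1 coefficient per group and no block; fits by guide kept 13968 genes. P-values were adjusted by Benjamini-Hochberg over all genes of a fit and called under 0.05. CPM are TMM-scaled, and log2 CPM carry a prior count of 2. The model was run on simulated data with a single dispersion and no differences between guides. That run cannot show whether libraries of the same guide may be treated as independent. For DSP 18.1% of the sum of squares of log2 CPM lay between guides of the same target and 1.03% between replicates. These shares were 16.4% and 2.39% for JUP, 7.88% and 2.13% for CLDN1, and 70.2% and 11.5% for DSG2. CLDN11 and PKP2 also had the larger share between guides, while OCLN, TJP1 and PERP did not. In DSP, JUP, CLDN1 and DSG2 replicates of a guide were thus not independent. Group SEs and calls count each library, so they may be too confident there.

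The 9 genes and all lists were chosen with earlier results of these data known. Of each list, every called gene is named, or else the most abundant; for 5 members the 3 genes of highest r are named. A few genes these rules name are not reported here. Alternatives were DESeq2 1.42.0, other scalings, no filter, a replicate block, a length offset, only the groups compared, summed libraries, and leaving out each library or guide. Replicate numbers did not pair libraries of different guides: of 36 pairs 0 had a correlation of deviations above 0.1 (-0.12 to 0.07).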

Additional observations from a re-analysis of the deposited data

Results flagged for a closer look

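In control libraries PERP measured 70.9 CPM in guide 2 replicate 2, far from the other 3 (56.9 to 58.8 CPM) by Dixon's ratio. It was the only such case in the 36 gene and group combinations examined, and chance flags about 1 in 20.

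The other cases are differences between guides of the same target, each called by edgeR's quasi-likelihood test over all genes and given as a description, since the genes were selected with values by guide known. Control guide 2 had less DSP than control guide 1 (log2 -0.3). CDKN1A guide 2 had less JUP than guide 1 (-1.14). KDM1A guide 3 had less PKP2 (-0.98), CLDN1 (-0.81) and JUP (-0.91) than guide 2. SPP1 guide 2 had less DSG2 (-2.39) and DSP (-0.37) than guide 1, and SPP1 guide 3 had less DSP than guide 1 (-0.66). The DSG2 value rests on 0.425 and 1.6 CPM in the libraries of SPP1 guide 2.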

How the results depend on the processing

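Of 567 alternative fold changes of the 9 genes, 534 stayed on their side of the threshold, 28 lost a call, 5 gained one and 0 reversed a called direction; 20 uncalled values changed sign. The number of the 9 genes called with CDKN1A guides (1) was 0 with a transcript length offset, 0 with the libraries of a guide summed, 0 leaving out control guide 1, 0 leaving out CDKN1A guide 1, 0 leaving out CDKN1A guide 2 and 2 with only the 2 groups compared; leaving out 1 library gave 0 to 1. With SPP1 guides (2) it was 0 with libraries summed and 0 without control guide 1, and leaving out 1 library gave 1 to 3. Calls over all genes fell as well. With libraries summed, 1 gene was called with CDKN1A guides and 1 with SPP1 guides, where the main fit called 271 and 738. Without control guide 1 these counts were 42 and 7. The lost calls are therefore not particular to the 9 genes. With KDM1A guides (5) leaving out 1 library gave 4 to 5. Between CDKN1A and SPP1 guides (2) it was 1 with only those groups, 0 with libraries summed, 0 without CDKN1A guide 1, 1 without CDKN1A guide 2 and 1 without SPP1 guide 3, and 1 to 2 with 1 library left out. Between KDM1A and SPP1 guides (5) it was 3 without KDM1A guide 2, and 4 to 6 with 1 library left out. Of guides against control (20 calls) 12 were left with a length offset, and of guides against each other (8) 4, or 19 with no filter. The replicate block gave 1, 5 and 2 calls for CDKN1A, KDM1A and SPP1 guides against control, as without it. Summing libraries leaves fewer samples; the other causes were not tested.

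PKP2 with KDM1A guides also lost its call with a length offset (log2 0.82), with only the 2 groups (1.02), with libraries summed (1.02) and without either library of control guide 1 or of KDM1A guide 2 (0.76 to 0.94). PERP with CDKN1A guides lost it without any 1 of 7 of its 8 libraries, all but control guide 2 replicate 2 (0.24 to 0.31). With SPP1 guides DSP (-0.73) and PERP (0.28) lost it with libraries summed, and PERP without SPP1 guide 2 (0.27) or either library of control guide 1 (0.24 and 0.25). Counts over all genes ranged from 1 to 587 for CDKN1A (271), 164 to 1385 for KDM1A (1225) and 1 to 986 for SPP1 guides (738) against control, from 436 to 2619 for KDM1A against CDKN1A (2023), 244 to 1932 for KDM1A against SPP1 (1606) and 113 to 1852 for CDKN1A against SPP1 guides (1635). With protein coding transcripts alone CLDN11 was 2.85 and TJP1 20.2 TPM in control. Low counts limit OCLN, DSG2 and JUP.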
